A study of Mus musculus with 8 samples.

Results

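The genes described here are 10 extracellular or cell-surface components of bone morphogenetic protein (BMP) signalling, taken by name from the 54307 genes of the deposited count table. They are the secreted ligands *Bmp2*, *Bmp3*, *Bmp4*, *Bmp5*, *Bmp6* and *Bmp7*, the secreted antagonists *Nog*, *Chrd* and *Chrdl1*, and *Bambi*. All 10 were found in the table and all 10 passed the filter on low counts. They were measured by RNA-seq of polyA-selected RNA from the periventricular area of 1 hemisphere, which contains the ventricular-subventricular zone (V-SVZ), in 8 mice at 8 weeks of age. The 4 *Lrig1* knockout (KO) mice, 2 female and 2 male, are homozygous for CreERT2 knocked into the first exon of *Lrig1*, which makes the knockout constitutive rather than confined to the tissue sampled. The 4 wild-type (WT) mice, 3 female and 1 male, carry 2 unaltered alleles, and both groups are on the 129-Elite strain background. *Lrig1* encodes LRIG1, a transmembrane protein with leucine-rich repeats and immunoglobulin-like domains that the study examines as a facilitator of TGFβ and BMP signalling. The question was whether the supply of BMP ligands and of the proteins that hold them in check differed between KO and WT.

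BMPs are secreted as dimers and bind pairs of type I and type II serine/threonine kinase receptors, which phosphorylate SMAD1/5/9. Noggin and chordin bind the ligands outside the cell and keep them from their receptors, while BAMBI resembles a type I receptor without a kinase domain and dampens signalling at the membrane. In the adult V-SVZ, BMPs are known to hold neural stem cells in quiescence and to favour glial over neuronal fates, and noggin from ependymal cells is known to oppose them.

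The gene counts summed to between 47887437 and 74482334 per mouse. *Lrig1* itself, the targeted gene, lay between 13.5 and 45.6 CPM in the WT mice and between 1.17 and 4.15 CPM in KO, with no overlap between the genotypes. The lowest WT value, 13.5, was that of WT replicate 2, and the other WT mice lay between 34.3 and 45.6. Its log2 fold change was -3.80, and its adjusted p of 0.286 (edgeR) was not under the threshold of 0.1. With DESeq2, the study reported *Lrig1* as lower in KO in these same animals, with the strongest significance of all lowered genes. CPM are counts-per-million values, scaled by edgeR's TMM library sizes. WT replicate 2, the single WT male, stood apart. The CPM of 10 markers of cortical excitatory neurons summed to 6672 in this mouse and to between 2224 and 3825 in the others, and each of the 10 markers was at its highest there, while the sum of 10 striatal medium spiny neuron markers was at its lowest, 3038 against 4611 to 9189. KO replicate 2 had the highest sums of septal markers (351 against 118 to 167), choroid plexus markers (92.6 against 19.3 to 68.4) and ependymal markers (73.9 against 30.3 to 58.8). Neuroblast markers summed to between 498 and 604 CPM, and no gene of the 12 marker lists was at 0 in all mice. In bulk tissue, fewer cells of a type and less RNA per cell cannot be told apart.

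Promoter sequences of 4 members (*Bmp4*, *Bmp5*, *Bmp6* and *Chrd*) were at hand from RefSeq on GRCm38.p6. The 250 bases before the transcription start are shown for the most variable of these across the 8 mice, *Chrd* and *Bmp5*, and for the steadiest, *Bmp6*. They lie on the plus strand at chr16:20732877-20733126, chr9:75775115-75775364 and chr13:38345466-38345715. Capitals mark matches, on either strand, to the GC-rich SMAD element GGCGCC, the SMAD palindrome GTCTAGAC, the E-box CAGATG or the minimal SMAD box CAGAC. None of these motifs overlaps another in these windows.
Chrd: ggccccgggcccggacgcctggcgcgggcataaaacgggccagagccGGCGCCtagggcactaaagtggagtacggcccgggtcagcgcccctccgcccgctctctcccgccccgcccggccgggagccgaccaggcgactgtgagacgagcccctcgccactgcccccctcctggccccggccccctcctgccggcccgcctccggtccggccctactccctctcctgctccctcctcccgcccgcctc
Bmp5: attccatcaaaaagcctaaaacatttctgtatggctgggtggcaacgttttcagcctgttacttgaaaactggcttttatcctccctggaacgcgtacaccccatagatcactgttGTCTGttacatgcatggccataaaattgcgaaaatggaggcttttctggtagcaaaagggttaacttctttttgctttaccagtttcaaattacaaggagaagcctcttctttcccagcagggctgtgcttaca
Bmp6: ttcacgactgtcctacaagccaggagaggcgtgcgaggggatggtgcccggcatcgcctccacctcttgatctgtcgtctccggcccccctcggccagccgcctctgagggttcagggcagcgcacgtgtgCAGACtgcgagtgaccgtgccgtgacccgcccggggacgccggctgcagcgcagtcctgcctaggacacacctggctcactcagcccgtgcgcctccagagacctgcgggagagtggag

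The *Chrd* window held 1 GGCGCC, a motif present in 9.59% of the 32851 windows of this length in the table, while the *Bmp5* and *Bmp6* windows held 1 CAGAC each, present in 42.2%. The *Bmp4* window held none of the motifs searched. GTCTAGAC (0.167% of windows) and CAGATG (14.4%) were in none of the 4. The *Chrd* window had 28 CpG dinucleotides, more than 92.4% of windows, the *Bmp6* window had 22, the *Bmp4* window 11 and the *Bmp5* window 4.

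Levels were first compared between genes per length, as transcripts-per-million values (TPM) summed over the transcripts of each gene. All 10 members were expressed at modest levels. The mean over all 8 mice was highest for *Bmp6*, at 5.23 ± 0.806 TPM (SD, n = 8), followed by *Nog* at 5.15 ± 2.35, *Chrdl1* at 4.87 ± 3.62, *Bmp7* at 3.72 ± 1.08 and *Bmp2* at 3.03 ± 0.507. A second tier held *Bmp3* at 1.64 ± 1.81, *Bmp4* at 1.59 ± 0.445 and *Chrd* at 1.32 ± 0.918, and below it came *Bambi* at 0.735 ± 0.112 and *Bmp5* at 0.271 ± 0.171 TPM. For comparison, the median of the mean TPM over 17609 tested genes was 7.83, and the members lay between the percentiles 7.5 (*Bmp5*) and 42.4 (*Bmp6*) of these genes. The ranges of neighbours in this order overlapped, so neighbours were not resolved, except that every mouse had less *Bmp5* than any mouse had *Bambi*. Farther apart in the order, every mouse had more *Bmp6* (4.39 to 6.65 TPM) than any mouse had *Bmp2* (2.42 to 4.03). The tiers group means only, since *Bmp3* (0.168 to 5.76 TPM) overlapped every gene above it.

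**Figure D1:**
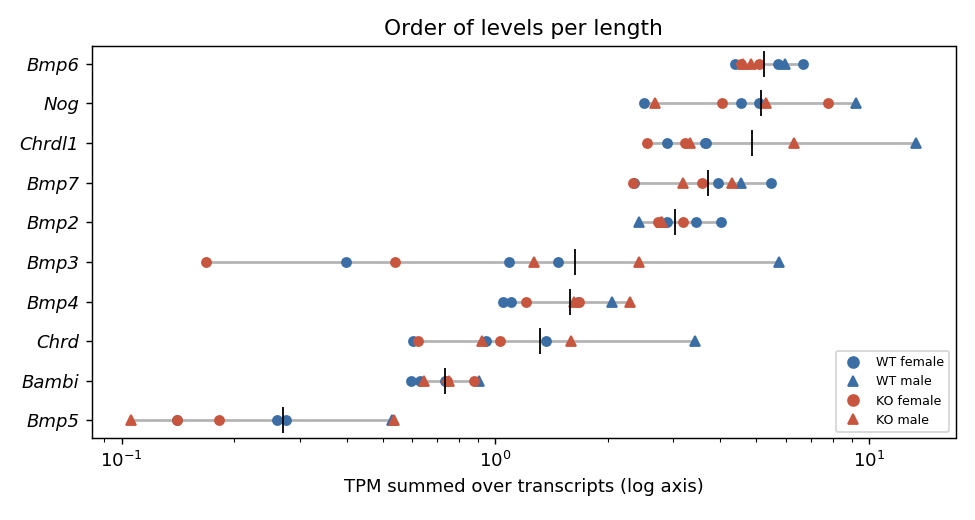
TPM of each member per mouse on a log axis, ordered by the mean over 8 mice (vertical tick), with grey lines from the lowest to the highest mouse, WT in blue, KO in red, females as circles and males as triangles. *Bmp6*, *Bmp2* and *Bambi* are tightly grouped, while *Bmp3* runs from 0.168 to 5.76 TPM and *Chrdl1* has 1 WT male at 13.4.

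The members also differed in how evenly they were expressed. Between the lowest and the highest mouse, CPM differed 1.45-fold for *Bambi*, 1.52-fold for *Bmp6*, 1.68-fold for *Bmp2*, 2.02-fold for *Bmp4*, 2.13-fold for *Bmp7* and 2.80-fold for *Nog*. The difference was 4.18-fold for *Chrdl1*, 4.23-fold for *Bmp5*, 5.32-fold for *Chrd* and 30.7-fold for *Bmp3*. *Bmp5* rested on the fewest reads, between 17 and 106 estimated counts per mouse, whereas *Bmp3* had between 51 and 1506.

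Between genotypes, none of the 10 members passed the test. Of the 6 ligands and 4 antagonists, 8 had a log2 fold change below 0 in KO and 2 above, with a median of -0.20, against 8881 of 17669 below 0 and a median of -0.0009 over all genes tested. In edgeR with sex as a covariate, 8 were below 0 and 2 above, and the median was -0.235. Without WT replicate 2 and with no sex term, 3 members were below 0 and 7 above, and the median was 0.13. As that mouse was the only WT male, this fit set female WT mice against KO mice of both sexes. With edgeR's quasi-likelihood test and Benjamini-Hochberg adjustment over all genes, 0 members had an adjusted p under 0.1 and 0 had an unadjusted p under 0.05. The background was 0.00566% of genes called, and 1.88% with an unadjusted p under 0.05. Since the same test did not call *Lrig1*, a member that did not pass cannot be said to be equal in KO and WT, and the intervals below give the differences these mice allow. DESeq2, DESeq2 with sex as a covariate (which called 0.687% of genes lower in KO) and limma on TPM called 0 members as well. KO and WT overlapped for all 10 members, while they did not for 1.53% of genes tested.

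**Figure D2:**
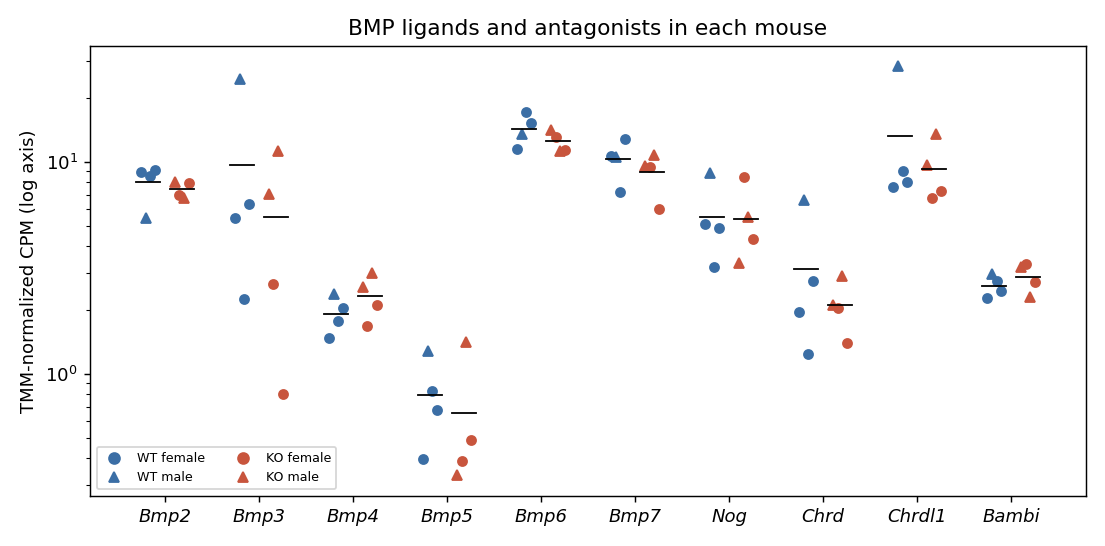
TMM-normalized CPM of each member in each mouse on a log axis, WT in blue, KO in red, females as circles, males as triangles and black lines for group means (n = 4). The KO and WT points overlap for every member, and the WT male stands above the other WT mice for *Bmp3*, *Nog*, *Chrd* and *Chrdl1*, among others, and below them for *Bmp2*.

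*Bmp2* and *Bmp4*, a closely related pair of ligands with classical roles in patterning and cell fate, had small differences of opposite sign, and neither passed. *Bmp2* was at 8.96, 5.42, 8.53 and 9.11 CPM in the WT mice and at 8.05, 6.94, 6.75 and 7.91 in the KO mice. WT replicate 2 was the lowest of all, and the other 3 WT mice were the highest. The log2 fold change was -0.11 (95% interval -0.50 to 0.28, adjusted p = 0.9998, edgeR). *Bmp4* was at 1.48, 2.39, 1.77 and 2.04 CPM in WT and at 2.56, 1.68, 2.98 and 2.11 in KO. The 2 highest values were those of the KO males and the third that of the WT male, and the log2 fold change was 0.28 (95% interval -0.22 to 0.79, adjusted p = 0.9998, edgeR).

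*Bmp6* and *Bmp7*, ligands of the same subgroup as *Bmp5*, were the ligands with the highest mean TPM, and neither passed. *Bmp6*, known in vessels and in the control of iron, was at 11.5, 13.5, 17.1 and 15.2 CPM in the WT mice and at 14.2, 13.1, 11.3 and 11.4 in the KO mice. The KO values lay within or just below the WT range, and the log2 fold change was -0.20 (95% interval -0.51 to 0.11, adjusted p = 0.9998, edgeR). On the opposite strand, *Txndc5*, with a mean of 4564.7 counts, overlaps exons of *Bmp6* in the annotation, and without a stated strand setting the reads of the pair cannot be fully told apart. *Bmp7*, known from kidney and eye development, was at 10.6, 10.5, 7.23 and 12.8 CPM in WT and at 9.53, 9.45, 10.8 and 6.02 in KO. Its log2 fold change was likewise -0.20 (95% interval -0.69 to 0.29, adjusted p = 0.9998, edgeR), and KO replicate 4 and WT replicate 3 were the low mice. *Bmp5* was at 0.396, 1.28, 0.831 and 0.673 CPM in WT and at 0.332, 0.389, 1.41 and 0.489 in KO, so that 1 mouse in each genotype, WT replicate 2 and KO replicate 3, was above 1 CPM. Its log2 fold change of -0.27 had a wide interval (-1.46 to 0.93, adjusted p = 0.9998, edgeR). Without WT replicate 2 it was 0.06 in edgeR with no sex term and -0.52 in DESeq2 with sex as a covariate, where genotype then rested on the females.

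*Bmp3*, an atypical ligand known to oppose signalling by other BMPs, had the largest fitted difference and the widest interval of the members. The study called *Bmp3* different in these same animals with DESeq2, at an adjusted p under 0.1, whereas no fit of all mice here did. Its direction here is therefore not independent evidence. *Bmp3* was at 5.41, 24.6, 2.26 and 6.34 CPM in the WT mice and at 7.07, 2.66, 11.3 and 0.804 in the KO mice. WT replicate 2 was far above the rest, KO replicate 4 far below, and the other 6 mice of both genotypes were interspersed. The log2 fold change was -0.82 (95% interval -2.79 to 1.15, adjusted p = 0.9998, edgeR) and -1.43 with sex as a covariate (adjusted p = 0.585, edgeR). Without WT replicate 2 it was 0.22 in edgeR with no sex term and -1.43 in DESeq2 with sex, where genotype then rested on the females. With sex as a covariate in DESeq2 it was also -1.43 (adjusted p = 0.24), and *Bmp3* then passed the threshold in 5 of the 8 fits that each left out 1 mouse (KO replicate 2, 3 or 4, or WT replicate 3 or 4), with adjusted p from 0.000215 without WT replicate 3 to 1.0 without WT replicate 2 (DESeq2, Benjamini-Hochberg).

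The secreted antagonists did not pass either. *Nog*, which encodes noggin, was at 5.06, 8.90, 3.18 and 4.89 CPM in WT and at 3.32, 8.51, 5.46 and 4.30 in KO. Each genotype had 1 mouse near 9 CPM, WT replicate 2 and KO replicate 2, and the log2 fold change was -0.03 (95% interval -0.85 to 0.79, adjusted p = 0.9998, edgeR). It was 0.30 without WT replicate 2, -0.34 without KO replicate 2 and 0.55 in females alone, so no direction can be given. KO replicate 2 also held the highest septal and ependymal marker sums, 351 and 73.9 CPM. WT replicate 2 held the lowest septal sum, 118, and an ependymal sum of 41.3. The part of these sums in the *Nog* values was not tested. *Chrd*, which encodes chordin, was at 1.96, 6.58, 1.24 and 2.75 CPM in WT and at 2.11, 2.05, 2.88 and 1.40 in KO. *Chrdl1*, which encodes a chordin-like antagonist known from astrocytes, was at 7.61, 28.2, 9.02 and 8.07 in WT and at 9.61, 6.74, 13.5 and 7.25 in KO. In both genes WT replicate 2 was the highest by a wide margin and the remaining WT mice lay inside the KO range except WT replicate 3, the lowest of all for *Chrd*. The log2 fold changes of -0.57 for *Chrd* (95% interval -1.66 to 0.51) and -0.51 for *Chrdl1* (95% interval -1.53 to 0.51) both had an adjusted p of 0.9998 (edgeR). Without WT replicate 2 they turned to 0.09 and 0.17 in edgeR with no sex term. In DESeq2 with sex as a covariate and without that mouse they were -0.20 and -0.23. With no WT male left, the genotype term of that fit rested on the females.

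*Bambi*, the pseudoreceptor, was the steadiest member. It was at 2.27, 2.96, 2.73 and 2.45 CPM in WT and at 3.18, 3.28, 2.29 and 2.71 in KO. The 2 highest mice were KO, the others were mixed, and the log2 fold change was 0.14 (95% interval -0.22 to 0.50, adjusted p = 0.9998, edgeR). The intervals of *Bmp2*, *Bmp4*, *Bmp6*, *Bmp7*, *Nog* and *Bambi* all lay within 1 log2 unit of 0, whereas those of *Bmp3*, *Bmp5*, *Chrd* and *Chrdl1* also took in a change of 1 log2 unit.

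**Figure D3:**
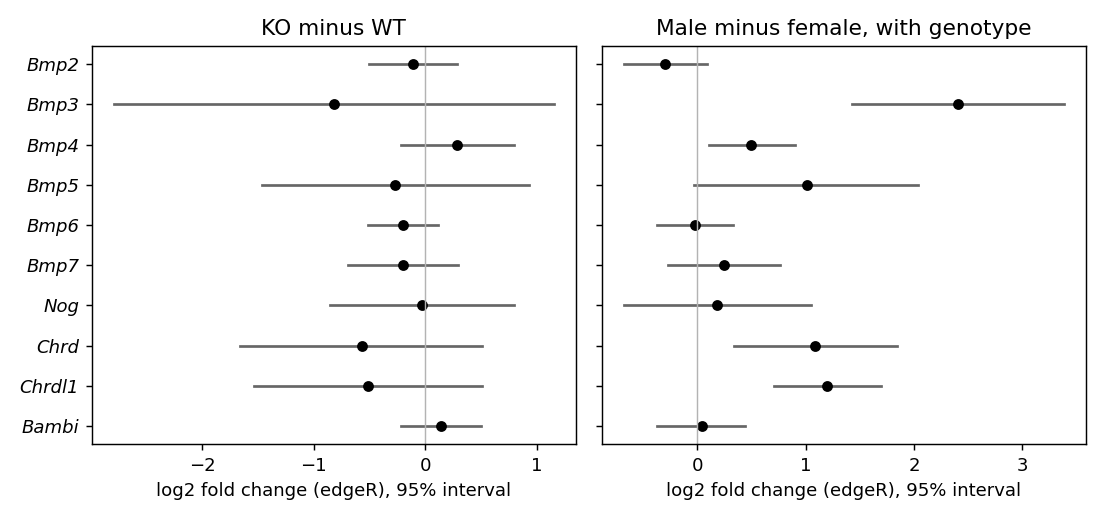
Log2 fold changes from edgeR (points) with 95% intervals (lines) for each member, KO minus WT on the left and male minus female, in a fit with genotype, on the right. All KO intervals include 0, and *Bmp3* and *Chrdl1* are the members past the adjusted threshold for sex.

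Sex was not balanced between genotypes, so the members were also compared between the 3 male and 5 female mice in a fit that included genotype. *Bmp3* and *Chrdl1* were higher in males, 2 of the 10 members, where 2.87% of all genes tested were called higher in males. *Bmp3* lay between 7.07 and 24.6 CPM in males and between 0.804 and 6.34 in females, with a log2 difference of 2.41 (95% interval 1.43 to 3.38, adjusted p = 0.042, edgeR). *Chrdl1* lay between 9.61 and 28.2 CPM in males and between 6.74 and 9.02 in females, with a log2 difference of 1.20 (95% interval 0.71 to 1.70, adjusted p = 0.0426, edgeR). Together with *Bmp4* (2.39 to 2.98 CPM against 1.48 to 2.11, adjusted p = 0.207, edgeR), these were the 3 members in which every male was above every female, which held for 4.7% of genes tested. *Chrdl1* lies on chromosome X and *Bmp3* on chromosome 5. *Chrd* had a log2 difference of 1.09 (adjusted p = 0.156, edgeR) and *Bmp5* of 1.01 (adjusted p = 0.328, edgeR).

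The sex difference rested on 3 males, and the cortical markers differed the same way. Without WT replicate 2, the only WT male, the sex term rested on the KO mice alone, 2 of each sex. In that smaller comparison the log2 difference of *Bmp3* was 2.40 (adjusted p = 0.54, edgeR) and that of *Chrdl1* 0.71 (adjusted p = 0.559, edgeR), and 0.0392% of genes were called higher in males. Without KO replicate 3 neither passed (adjusted p = 0.167 and 0.169, edgeR), and without KO replicate 1, the male with the lowest values of both, 4 members passed. The summed cortical markers were 6672, 3450 and 3825 CPM in the males and between 2224 and 3172 in the females, so every male was above every female, and 7 of the 10 cortical markers were themselves called higher in males. The part of cortical tissue in the sex difference was not tested.

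The levels of the members were then compared with each other from mouse to mouse. Over the 45 pairs of members, Pearson's r of log2 CPM had an unadjusted exact permutation p under 0.05 for 8 pairs and Spearman's rho for 2, and 0 pairs had a Benjamini-Hochberg adjusted p under 0.05 over the 45. The closest pair was *Bmp3* with *Chrd*, with r = 0.88 (exact permutation p = 0.00531, adjusted p = 0.199, n = 8) and rho = 0.93 (exact permutation p = 0.00223, adjusted p = 0.10). This r was 0.87 after centring each genotype and 0.81 without KO replicate 4 and WT replicate 2, the mice farthest from the median of *Bmp3*. On log2(TPM + 0.1) the same pair had r = 0.93 and passed (exact permutation adjusted p = 0.0435). *Chrd* and *Chrdl1* had r = 0.84 and rho = 0.64 (exact permutation p = 0.0206 and 0.0962, adjusted p = 0.199 and 0.541), and r was 0.63 without WT replicates 2 and 3 and 0.42 without WT replicate 2 alone. *Bmp3* and *Chrdl1* had r = 0.79 and rho = 0.81 (exact permutation p = 0.0167 and 0.0218, adjusted p = 0.199 and 0.49), with r = 0.67 without KO replicate 4 and WT replicate 2. *Bmp2* ran the other way, with r = -0.80 to *Chrdl1* (exact permutation p = 0.0285, adjusted p = 0.214) but rho = -0.38 (exact permutation p = 0.36, adjusted p = 0.623), and r was 0.45 without WT replicate 2 and KO replicate 3, so the relation rested on those mice. Centring each gene by sex, an adjustment chosen after seeing the data, gave r = 0.78 for *Bmp3* with *Chrd* (exact permutation within sexes, p = 0.0208, adjusted p = 0.425), 0.51 for *Bmp3* with *Chrdl1* (exact permutation p = 0.133, adjusted p = 0.878) and 0.72 for *Chrd* with *Chrdl1* (exact permutation p = 0.222, adjusted p = 0.878). None of the 45 pairs passed after this centring.

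**Figure D4:**
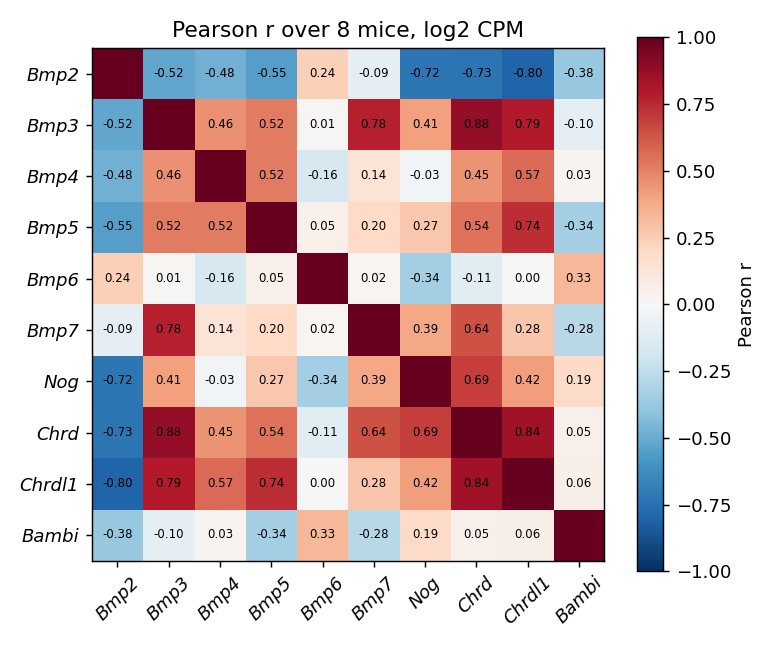
Pearson's r of log2 CPM over 8 mice for each pair of members, from blue (-1) to red (1). *Bmp3*, *Chrd* and *Chrdl1* form a block with r from 0.79 to 0.88, *Bmp2* is negative to most others, and *Bmp6* and *Bambi* are near 0 with the block.

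The genes whose pattern over the 8 mice was most like that of each member, among 14451 others with a mean of at least 1 CPM, were then listed. With so many genes and 8 mice, high values of r are easily reached, and they are given only as a description. For *Bmp3* the closest were *Neurod2* (r = 0.983), *Rtn4rl2* (r = 0.981) and *Neurod6* (r = 0.975), of which *Neurod2* and *Neurod6* are transcription factors of cortical excitatory neurons and were among the cortical markers. For *Chrd* they were *Adam11* (r = 0.99), *Myrip* (r = 0.989) and *Syn1* (r = 0.988), the last encoding the synaptic vesicle protein synapsin I. For *Chrdl1* they were *Inpp5b* (r = 0.993), *Gcnt4* (r = 0.99) and *Adam19* (r = 0.986). *Bmp5* was closest to *Ogn* (r = 0.966), an extracellular matrix gene that was among the meningeal fibroblast markers, *Dab1* (r = 0.965) and *Pcsk7* (r = 0.962). *Bmp6* was closest to *Gbp2* (r = 0.972), *Cpe* (r = 0.963) and *Mfsd2a* (r = 0.958), the last a lipid transporter of brain endothelium. For *Bmp4* they were *Klhl14* (r = 0.916), the Y-linked *Ddx3y* (r = 0.91) and *Abcc5* (r = 0.905), and *Bmp4* itself was higher in each male than in any female. For *Bmp2* they were *Synrg* (r = 0.991), *Fat1* (r = 0.983) and *Map3k13* (r = 0.975), and for *Bmp7* *4430402I18Rik* (r = 0.97), *Myof* (r = 0.927) and *Snx29* (r = 0.915). For *Nog* they were *D130043K22Rik* (r = 0.971), *Habp4* (r = 0.967) and *Tbc1d22b* (r = 0.964), and for *Bambi* *Amz2* (r = 0.952), *Ube2l3* (r = 0.93) and *Gm17018* (r = 0.923).

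Set against the summed cortical markers mouse by mouse, *Bmp3* was lowest in KO replicate 4, WT replicate 3 and KO replicate 2, where the sums were 2330, 2973 and 2224 CPM, and highest in WT replicate 2 and KO replicate 3, where they were 6672 and 3825. The orders were not the same, as WT replicate 1, with a sum of 2940, had *Bmp3* at 5.41 CPM against 2.26 in WT replicate 3. *Chrdl1* was likewise highest in those 2 mice with the highest sums, and lowest in KO replicates 2 and 4. *Chrd* was highest in the same 2 mice (6.58 and 2.88 CPM) but lowest in WT replicate 3 (1.24). *Bmp6* was not highest there, with 13.5 CPM in WT replicate 2 against 11.3 to 17.1 in the other mice. The summed meningeal fibroblast markers were also highest in WT replicate 2 and KO replicate 3, at 91.0 and 79.7 CPM against 44.8 to 75.6 in the others. Neither marker sum was part of any fit, and their part in the *Bmp3*, *Chrd* and *Chrdl1* values was not tested.

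**Figure D5:**
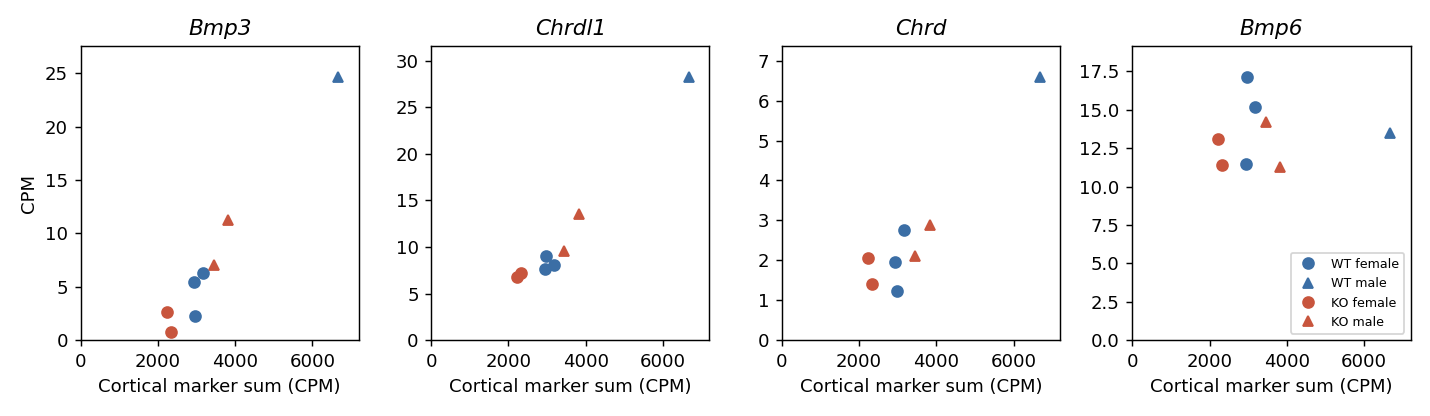
CPM of *Bmp3*, *Chrdl1*, *Chrd* and *Bmp6* against the summed CPM of 10 cortical excitatory neuron markers in each mouse, WT in blue, KO in red, females as circles and males as triangles. WT replicate 2, at a sum of 6672, has the highest value of the first 3 genes and a middling value of *Bmp6*.

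The transcripts that carried each member were also compared, since a gene total can hide a change of isoform. *Bmp2*, *Bmp5*, *Bmp6*, *Bmp7*, *Nog* and *Bambi* each had all of their TPM in 1 transcript in every mouse. *Bmp3-201* held 94.81% of *Bmp3* over all mice and *Bmp4-201* held 94.03% of *Bmp4*. *Bmp3-203*, with 4.83% over all mice, reached 38.95% in 1 mouse, KO replicate 4, in which the whole gene was at 0.168 TPM. *Chrdl1* was divided among *Chrdl1-202* (51.92%, from 44.78% to 66.46% in single mice), *Chrdl1-201* (25.6%), *Chrdl1-205* (17.27%) and *Chrdl1-203* (5.21%). *Chrd-201* held 70.83% of *Chrd*, from 50.75% to 90.42%, with the rest spread over 9 transcripts, some of them annotated with a retained intron or as targets of nonsense-mediated decay. In WT replicate 2, *Chrdl1-202* was at 6.74 TPM, *Chrdl1-201* at 4.37 and *Chrdl1-205* at 2.13, each above every other mouse. The high level of the gene there was thus carried by several isoforms.

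The rest of the BMP pathway was read from lists of 5 kinds: other ligands, other antagonists and modulators, receptors and co-receptors, SMADs with their ubiquitin ligases, and target genes. Of 63 different genes listed, 52 were tested, 0 had an adjusted p under 0.1 between KO and WT (edgeR's quasi-likelihood test) and 4 had an unadjusted p under 0.05, beside 1.88% of all genes tested. The lists were read from edgeR fits only, not from DESeq2, and the main edgeR fit did not call *Lrig1* either. Of 10 other ligands only *Gdf5*, *Gdf10* and *Gdf11* passed the filter on low counts, with a median log2 fold change of -0.131. *Gdf11*, the highest of them, lay between 14.5 and 17.8 CPM in WT and between 12.9 and 22.4 in KO. *Gdf10* lay between 6.98 and 9.68 CPM in WT and between 3.50 and 7.57 in KO.

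Of 21 other antagonists and modulators 19 were tested, 10 above 0 and 9 below in KO, with a median of 0.022. *Fstl1*, a secreted follistatin-like protein, was the one with an unadjusted p under 0.05, at 29.4 to 33.4 CPM in WT and 32.6 to 45.6 in KO (log2 fold change 0.27, adjusted p = 0.9998, edgeR). *Nbl1*, a further antagonist of the DAN family, was at 37.8 CPM in WT replicate 2 and between 12.7 and 24.0 in the other mice, the same mouse that led for *Chrd* and *Chrdl1*. *Crim1*, a transmembrane protein that binds BMPs, lay between 61.5 and 84.2 CPM in WT and between 63.4 and 111.0 in KO. Of 12 receptors and co-receptors 11 were tested, 7 of them below 0, with a median of -0.066. The most abundant were the co-receptors *Neo1* and *Rgma*, with 103.0 to 140.0 and 51.0 to 76.2 CPM over all mice. All 8 SMAD and ubiquitin ligase genes were tested, 6 below 0, with a median of -0.09. The 2 most abundant were *Smad4*, the SMAD shared with the TGFβ branch (46.1 to 62.4 CPM over all mice), and *Smurf1*, which marks SMADs and receptors for degradation (52.6 to 60.7 in WT and 45.2 to 53.1 in KO).

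The targets were the list with a median farthest from 0. Of 14 listed, 13 were tested, 11 were below 0 in KO and the median was -0.285. Among them *Id1*, *Id3* and *Msx1*, all transcriptional regulators induced by BMPs, had an unadjusted p under 0.05 and were lower in KO, beside 1.08% of all genes tested. *Id3* lay between 17.3 and 25.4 CPM in WT and between 9.72 and 11.8 in KO, without overlap (log2 fold change -1.0, adjusted p = 0.286, edgeR). *Id1* lay between 6.30 and 10.6 CPM in WT and between 5.37 and 6.40 in KO, and its log2 fold change was -0.47 (adjusted p = 0.9998, edgeR). *Msx1* lay between 1.73 and 2.73 CPM in WT and between 1.48 and 1.83 in KO, and its log2 fold change was -0.41 (adjusted p = 0.9998, edgeR). The most abundant targets were *Id4*, at 147.0 to 344.0 CPM in WT and 230.0 to 344.0 in KO, and *Id2*, at 50.3 to 101.0 in WT and 31.5 to 72.6 in KO (adjusted p = 0.9998 for both, edgeR). The study called *Id3* and *Id2* different in these same animals with DESeq2, at an adjusted p under 0.1, unlike the edgeR fit here. The direction of these genes here is therefore not independent evidence.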

How the data were processed

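RNA was isolated from periventricular tissue of 4 WT and 4 KO mice, and polyA-selected libraries were sequenced on a NovaSeq. FASTQ files were made with bcl2fastq 2.20. The authors ran Salmon (version not given in the sources used here) against Gencode M29 and deposited a table of estimated counts for genes and 1 file per mouse with estimated counts and TPM for transcripts, without further normalization. How transcripts were summed to genes is not stated, but for the 10 members the gene counts equalled the transcript sums. Columns were matched to mice by animal tags, and the totals, 47887437 to 74482334, equalled those of the transcript files.

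Symbols named 94.8% of identifiers. Gencode M21 (GRCm38), an older build than the authors', matched 97.4% of transcripts and served for names and TPM sums. The length and effective length columns were not used in a test.

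Counts were rounded and tested with edgeR 4.0.16 (R 4.3.3; TMM, filterByExpr, quasi-likelihood, no covariates) over 17669 genes, at a Benjamini-Hochberg adjusted p under 0.1. Intervals use the standard error, the log2 fold change over the square root of F. Sex was tested with genotype in the fit. Correlations used log2 CPM (prior count 2) and 2-sided exact permutation over 8 mice. Alternatives used DESeq2 1.42.0 and limma 3.58.1 (log2(TPM + 0.1), which understates changes of low genes), other filters, covariates and samples. The fits were also run on simulated counts, which held no sex effect and no outlying mouse and so do not bear on those features. The authors used DESeq2 for their own comparison. The members and lists were chosen with earlier results of these data known. Genes named were the members, *Lrig1*, list genes with an unadjusted p under 0.05 or the 2 highest mean TPM of their list, and the 3 genes closest in pattern to a member. Each mouse is 1 library, and intervals cover the spread between these mice.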

Additional observations from a re-analysis of the deposited data

Results flagged for a closer look

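In 76 groups of 4 mice, over the genes named with values for each mouse, the marker sums and the totals, 7 held a mouse whose distance from its nearest neighbour exceeded the 95% critical value of Dixon's test. This is 9.21% of groups, and about 1 in 20 would be set apart by chance. Among the members, *Bmp2* was at 5.42 CPM in WT replicate 2 and between 8.53 and 9.11 in the other WT mice. *Chrdl1* was at 28.2 CPM in the same mouse and between 7.61 and 9.02 in the others. *Bmp5* was at 1.41 CPM in KO replicate 3 and between 0.332 and 0.489 in the other KO mice. Of the other genes, *Nbl1* was at 37.8 CPM in WT replicate 2 and between 16.3 and 19.2 in the other WT mice.

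The summed cortical excitatory markers were at 6672 CPM in WT replicate 2 and between 2940 and 3172 in the other WT mice. The summed markers of oligodendrocyte precursors and committed cells were at 711 CPM in WT replicate 4 and between 574 and 594 in the other WT mice. The summed septal markers were at 351 CPM in KO replicate 2 and between 125 and 155 in the other KO mice. The part of these marker sums in the values of single genes was not tested.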

How the results depend on the processing

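Of the members, 0 were called higher in KO under any alternative. The count of members called lower was 0 in each alternative except for DESeq2 with sex and 1 mouse left out, where it was from 0 to 1, the 1 being *Bmp3*. Over all genes, 1 was called by edgeR, 12 by DESeq2, 201 by DESeq2 with sex (146, 101, 111 and 343 without KO replicates 1 to 4 and 121, 34, 243 and 317 without WT replicates 1 to 4), 2 without a filter or with sex in edgeR, 3 in females only and 0 with at least 10 counts in every mouse. With each mouse left out, edgeR called from 0 to 3. Replicate numbers did not pair the mice (correlations of deviations of same-numbered mice 0.077, -0.225, -0.225 and 0.267), and the replicate block gave 0 genes and 0 members. In edgeR with no sex term and 1 mouse left out, the log2 fold change ranged from -1.47 to 0.22 for *Bmp3*, from -0.97 to 0.06 for *Bmp5*, from -0.34 to 0.30 for *Nog*, from -0.83 to 0.09 for *Chrd* and from -0.75 to 0.17 for *Chrdl1*, above 0 for each without WT replicate 2, the only WT male. *Nog* was at 0.55 in females only. In DESeq2 with sex and 1 mouse left out, *Bmp2* ranged from -0.25 to 0.12 (0.02 without KO replicate 4, WT replicate 1 or WT replicate 4) and *Nog* from -0.50 to 0.55 (0.01 and 0.05 without KO replicates 3 and 4). In the same fits *Bmp3* ranged from -1.97 to -1.11 and *Bmp5* from -0.93 to -0.31. *Chrd* ranged from -0.94 to -0.20 and *Chrdl1* from -0.77 to -0.23, so each of these stayed below 0. The fit without WT replicate 2 had no WT male, so its genotype term rested on the females. Members called by sex numbered from 0 to 4 when single mice were left out and 3 without a filter, where *Chrd* was added. The sex difference ranged from -0.12 to 0.04 for *Bmp6*, from -0.55 to 0.57 for *Nog* and from -0.15 to 0.18 for *Bambi*. Of the other pathway genes, 1 was called in edgeR without WT replicate 2 and 0 without any other single mouse. With 1 mouse left out, the medians of the other ligands and of the targets ranged from -0.172 to 0.104 and from -0.418 to -0.186. Pairs past the threshold numbered 0 on log2 CPM, 1 on log2(TPM + 0.1) and 0 when centred by sex, which was chosen after seeing the data. For each of these changes, the cause was not tested.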

Other observations

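Summed over the 6 ligands, TPM lay between 12.1 and 21.3 per mouse, and summed over *Nog*, *Chrd* and *Chrdl1* between 5.98 and 26.1. The antagonist sum divided by the ligand sum was 0.649, 1.23, 0.47 and 0.516 for WT replicates 1 to 4. For KO replicates 1 to 4 it was 0.501, 0.859, 0.78 and 0.653. Within the genes summed, only WT replicate 2 had more antagonist than ligand transcripts. The ratio depends on that choice of genes. Other antagonists and modulators, such as *Crim1*, *Fstl1* and *Nbl1*, were left out, and *Bmp3*, known to oppose other BMPs, was counted as a ligand. *Bmp6* was the largest share of the ligand sum in all 8 mice, from 27.2% to 45%. *Bmp3* took 27.1% of it in WT replicate 2 and from 1.39% to 14.3% in the other mice. Among the antagonists, *Nog* took 68.5% of the sum in KO replicate 2 and from 35.5% to 51.3% in the others. These sums weigh transcripts, not proteins, and carry no test.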
